A study of Mus musculus with 4 samples.

Results

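ETS family transcription factors were followed in 2 RNA libraries of activated mouse B cells. The 10 genes described are Ets1, Ets2, Fli1, Spib, Elf1, Elf2, Elf4, Etv6, Gabpa and Elk3, matched by symbol, and all 10 were found among the 13792 genes that both libraries list. They were selected on being listed in these libraries, with the empty-vector and Ascl2 values and the ratio of Ets1 and Ets2 already known. Their values are therefore a description, with no test. Both libraries came from naive B cells of the inbred mouse strain C57BL/6 that were infected with a retrovirus and then cultured with antibodies against IgM and CD40, stand-ins for antigen and T cell help. The control virus, RVKM-Empty, carried no insert. RVKM-Ascl2 carried Ascl2, a basic helix-loop-helix factor that binds the short DNA motif called an E-box. The labels name no sort for infected cells, no culture time and no age or number of mice, so the share of cells that carried the virus is not known. Each group had 1 library. The values therefore carry no replicate error, and differences between the libraries were not checked in replicates.

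ETS factors share a DNA-binding domain that recognises sites with a GGAA core. They differ in their partners and in the signals they answer to. In B cells, Spi-B and its relative PU.1 act with IRF factors on genes of B cell receptor signalling, and Ets1 is known for holding back plasma cell differentiation. GABP serves housekeeping and mitochondrial genes, and the ternary complex factors, Elk3 among them, work with serum response factor on genes induced through RAS and ERK.

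The deposited values are abundances per gene. Where a pair of values is given without naming the libraries, the first is from the empty-vector library and the second from the Ascl2 library. Their unit is not named, so the order of levels between genes holds only if the values are scaled for gene length. They summed to 750692 under the empty vector and 763932 under Ascl2, with no read depth stated. For the 1842 lowest genes, under 1.2 in each library, the Ascl2 value was most often 1.15 times the other (42 genes in that interval and a median of 12 in those around it), as if the Ascl2 library were the shallower by that factor. Ascl2 itself was 0.0809 under the empty vector and 29.4 under Ascl2, which goes with the labels. All 10 B cell markers were listed, between 22.02 and 4124 with the empty vector and between 24.3 and 7629 with Ascl2. Of 10 T cell markers 3 were listed, with sums of 23.9 and 19.3 that were mostly Lck, and Cd3e, Cd3d, Cd3g, Cd4 and Cd8a were not among the listed genes. Of 10 myeloid markers 7 were listed, with sums of 43.9 and 51.1, and Itgam, Mpo and Elane were not. Of 7 megakaryocyte and erythroid markers 3 were listed, with sums of 3.34 and 3.57, and Gp9, Pf4, Gata1 and Klf1 were not. Of 5 endothelial markers Pecam1 alone was listed, at 5.40 and 4.76, and of 5 stromal markers 2 were listed, both under 1. Ets1, Fli1 and PU.1 are also made by such cells, and the part of other cells in the values below was not tested. In bulk RNA, fewer cells of a type and less RNA per cell cannot be told apart.

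Ets1 and Ets2 were higher in the Ascl2 library, and the other 8 genes had values within 1.5-fold of each other in the 2 libraries. Differences are given as log2((Ascl2 + 1)/(Empty + 1)), here called the log2 ratio. The added 1 makes differences of low genes look smaller. A log2 ratio of 1 or more, or of −1 or less, is called 2-fold. On that scale 2 of the 10 genes passed the limit upward and none passed it downward. The background is the 12283 genes that reached 1 in one library or both. Of these, 1.53% passed the 2-fold limit upward and 0.716% downward, and 90.7% lay under 1.5-fold either way. Without immunoglobulin genes the shares past 2-fold were 0.83% and 0.714% of 12048 genes. Since the 10 genes were chosen with these ratios known, nothing is read from their count against those shares. Their median log2 ratio was 0.07, beside −0.01 over all 12283 genes, and 7 of the 10 ratios were above 0, as were 48.4% of all genes.

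**Figure D1:**
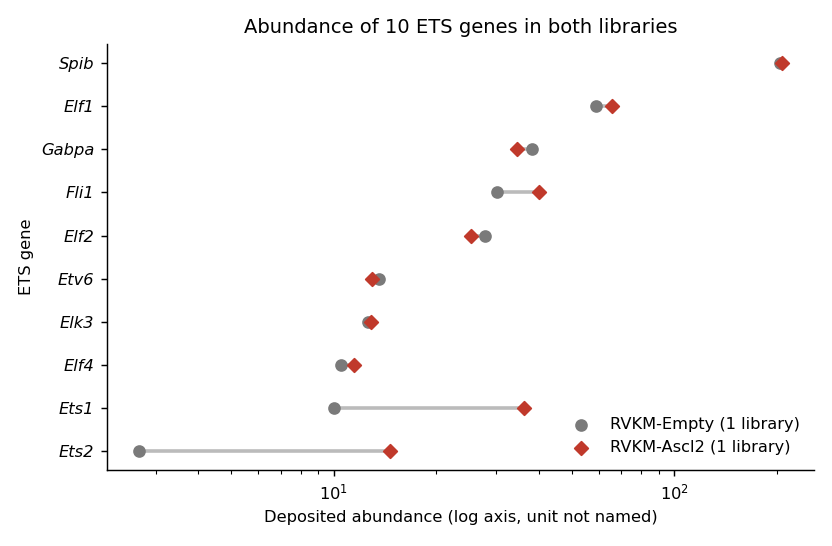
Deposited abundance of the 10 ETS genes (log axis, unit not named) in the empty-vector library (grey circles) and the Ascl2 library (red diamonds), 1 library each, ordered by the empty-vector value. Ets1 (10.04 and 36.2) and Ets2 (2.68 and 14.6) are the genes with long bars, while Spib is 205 and 208.

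Ets1 (ENSMUSG00000032035), the founding member of the family, lies on chromosome 9 from 32636241 to 32757820 (GRCm38). Its value was 10.04 under the empty vector and 36.2 under Ascl2, 3.60 times as high, with a log2 ratio of 1.75. That ratio was number 36 from the top of the 12283. For scale, the 2517 genes whose mean level lay within 0.5 log2 units of that of Ets1 had log2 ratios from −0.52 at the 5th percentile to 0.43 at the 95th. Among all listed genes Ets1 stood at percentile 49.6 under the empty vector and at percentile 80.5 under Ascl2. Across genes, which are not independent replicates, longer genes tended to have higher log2 ratios (Spearman rho 0.19 with genomic span), and Ets1 spans 121580 bases. Genes that span 100 to 150 kb had a median log2 ratio of 0.04, and 0.899% of those 556 genes were at least 2-fold higher. With the trend over span removed, the log2 ratio of Ets1 was 1.71.

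Ets2 (ENSMUSG00000022895), the closest relative of Ets1 and like it a known target of ERK phosphorylation, lies on chromosome 16 from 95702407 to 95721049. Its values were 2.68 with the empty vector, the lowest of the 10 genes there, and 14.6 with Ascl2, for a log2 ratio of 2.08 (number 22 from the top). The 2184 genes of similar level had log2 ratios from −0.53 to 0.54 between the same percentiles. The Ascl2 value of Ets2 is deposited with 7 significant digits. Of all listed genes, 99.9% have at most 6 digits in both libraries, and all 7 exceptions had values at least 2-fold higher with Ascl2. The rows of the deposited empty-vector values run in order of the ratio of the 2 values, apart from 2 places and leaving aside very small drops. Ets2 and the 6 other exceptions stand in that order. The row order of the deposited Ascl2 values was not checked. Whether their values were made like the rest is not known, so the ratio of Ets2 is less firm than that of Ets1. Without Ets2, 1 of 9 genes was at least 2-fold higher, and the median log2 ratio was 0.03.

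**Figure D2:**
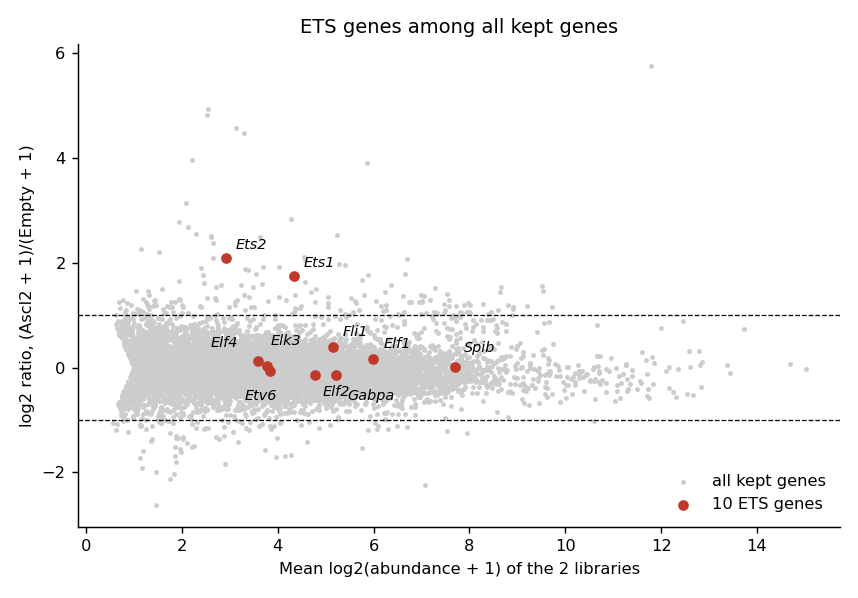
Log2 ratio of (Ascl2 + 1) to (Empty + 1) against the mean log2(abundance + 1) of the 2 libraries for 12283 genes (grey) and the 10 ETS genes (red), with dashed lines at 2-fold. Ets2 (2.08) and Ets1 (1.75) lie above the upper line, and the other 8 lie between −0.14 and 0.40.

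Fli1 lies next to Ets1 on chromosome 9, from 32422204 to 32543432, and encodes a factor of blood cell development from the ERG branch of the family. It was 30.1 under the empty vector and 40.1 under Ascl2, 1.33 times as high (log2 ratio 0.40). The gap between the 2 genes is 92.8 kb, with no other listed gene of known position in it. With the empty vector the value of Ets1 was 0.333 of that of Fli1, and with Ascl2 it was 0.903. The 1983 genes at the level of Fli1 had a 95th percentile of 0.41, so the ratio of Fli1 lay inside their range. The next such genes on either side of the pair, Gm3756 (0.46 and 0.624) and Gm10698 (0.57 and 0.659), were under 1 in both libraries. Around Ets2, the nearest listed genes of known position were Dyrk1a, 1007 kb away, and Psmg1, 259 kb away. Dyrk1a, a protein kinase gene (24.6 and 23.5), and Psmg1, a proteasome assembly chaperone gene (24.4 and 26.4), had close values in both libraries. No other listed gene of known position within 1000 kb of Ets1 or Ets2 was at least 2-fold higher or lower. Few genes stand behind this, since only 1 other gene near Ets1 (Fli1) and 4 near Ets2 reached a value of 1.

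Spib was the most abundant of the 10, and its level hardly differed. Spi-B, its product, is a B cell factor that also acts in plasmacytoid dendritic cells. Spib (chromosome 7, 44525995 to 44532087) was 205 under the empty vector and 208 under Ascl2, at percentile 97.0 in both libraries. Its value was 20.4 times that of Ets1 under the empty vector and 5.74 times under Ascl2. Spi1, which encodes the related factor PU.1 and is no member of the 10, was 21.5 and 15.4 (log2 ratio −0.45). Spib was thus 9.56 times Spi1 under the empty vector and 13.5 times under Ascl2. The 2530 genes at the level of Spi1 had a 5th percentile of −0.53, so this difference lay inside their range.

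The 3 Elf genes, which form a branch of the family active in lymphoid and other blood cells, had close values in both libraries. Elf1 (chromosome 14, 79481174 to 79582491) was 58.8 under the empty vector and 65.9 under Ascl2, the second highest level of the 10 in each. Elf2 (chromosome 3, 51252720 to 51340683) was 27.9 and 25.3. Elf4 (chromosome X, 48411049 to 48463132), known for keeping T cells quiescent, was 10.5 and 11.4. Their summed value was 97.2 under the empty vector and 103 under Ascl2, 1.06 times as high, and their log2 ratios ran from −0.14 to 0.16.

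Gabpa, Etv6 and Elk3 also had close values. Gabpa (chromosome 16, 84834891 to 84863783), the DNA-binding subunit of GABP, was 38.1 under the empty vector and 34.5 under Ascl2. Etv6 (chromosome 6, 134035700 to 134270158), a repressor with a domain that forms polymers, was 13.6 and 12.9. Elk3 (chromosome 10, 93247415 to 93311159), a ternary complex factor that can repress its targets, was 12.6 and 12.8. The 7 genes Spib, Elf1, Elf2, Elf4, Etv6, Gabpa and Elk3 differed by 1.01-fold to 1.12-fold between the libraries. A log2 ratio no farther from 0 than that of Elf1 (0.16) was found in 40.2% of all 12283 genes. The sign of the ratio is not read for these 7. That of Etv6 was −0.07 and turned to 0.02 when the Ascl2 library was rescaled to equal sums without immunoglobulin genes and Pcdh15, and that of Elk3 was 0.03 and turned to −0.05 with the span trend removed. Some of these genes overlap a neighbour in the annotation, and whether the authors counted by strand is not given in the sources used here. Gabpa overlaps Atp5j, a subunit gene of ATP synthase (140 and 146), by 967 bases, Elk3 overlaps Cdk17 (15.3 and 17.04) by 3680 bases, Elf2 overlaps 4930577N17Rik (1.22 and 0.36) by 1647 bases, and Elf1 overlaps Wbp4 (12.6 and 12.5) by 95 bases.

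In the order of the 10 levels, Ets1 and Ets2 stood higher with Ascl2, and Fli1 and Gabpa traded places. With the empty vector it ran Spib, Elf1, Gabpa, Fli1, Elf2, Etv6, Elk3, Elf4, Ets1 and Ets2. With Ascl2 it ran Spib, Elf1, Fli1, Ets1, Gabpa, Elf2, Ets2, Etv6, Elk3 and Elf4. With 1 library each, whether neighbours in these orders differ beyond their spread cannot be said, and Etv6, Elk3 and Elf4 lay between 10.5 and 13.6 with the empty vector and between 11.4 and 12.9 with Ascl2.

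Across the family, Ets1 and Ets2 made up most of the net difference on the deposited scale. Of 27 ETS genes looked for, 17 were listed, and Erg, Etv1, Fev, Spic, Elf3, Elf5, Ehf, Spdef, Etv2 and Etv3l were not. The 17 values summed to 494 under the empty vector and 547 under Ascl2, a difference of 52.6, to which Ets1 and Ets2 together contributed 38.1. On the log2 scale the ratio of the 2 sums was 0.15. It was 0.24 when the Ascl2 library was rescaled to equal sums without immunoglobulin genes and Pcdh15. Whether Ets1 and Ets2 make up most of the net difference therefore depends on the scaling. The share of Ets1 in the family sum was 2.03% under the empty vector and 6.62% under Ascl2, and that of Ets2 was 0.543% and 2.67%. Spib took 41.5% and 38.04%. The 8 members other than Ets1 and Ets2 summed to 397 and 411. Among the 7 listed ETS genes outside the 10, Elk4, a ternary complex factor, was 32.9 and 42.2 (log2 ratio 0.35), and the repressor gene Erf was 6.88 and 3.91 (−0.68). Erf lay below the 5th percentile of genes at its level, −0.55. Elk1 was 6.94 and 5.86, the repressor gene Etv3 was 12.4 and 13.1, Etv5 was 3.42 and 3.65, and Etv4 was under 1 in both.

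**Figure D3:**
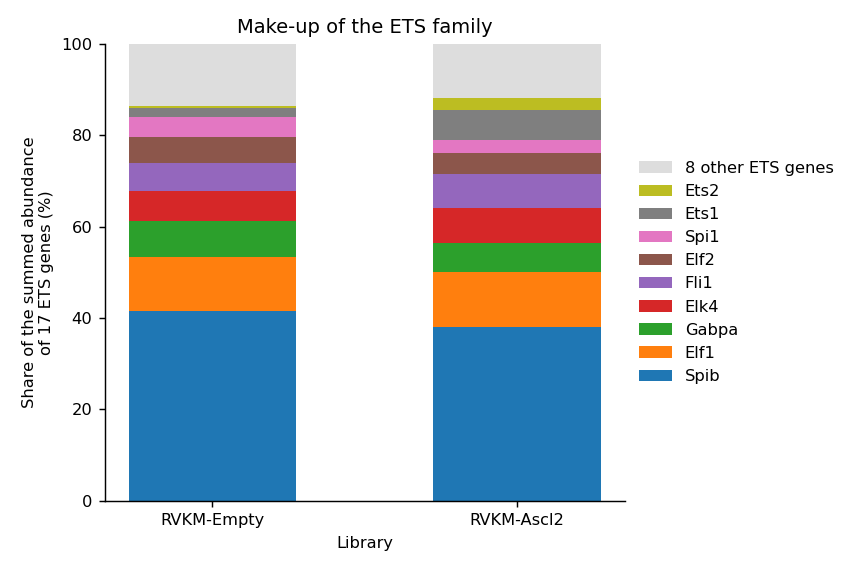
Share of each ETS gene in the summed abundance of the 17 listed ETS genes (%), 1 bar for each library, with the remaining 8 genes pooled in light grey. Spib takes 41.5% under the empty vector and 38.04% under Ascl2, and the shares of Ets1 (2.03% and 6.62%) and Ets2 (0.543% and 2.67%) are larger with Ascl2.

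Promoter sequence was looked up in the RefSeq table for GRCm38.p6, which matched 8 of the 10 genes with 11 start sites. There was no entry for Ets1 or Fli1. In the 250 bases before each start, 4 motifs were searched on both strands. They included the E-box CANNTG that basic helix-loop-helix factors bind and its form CAGCTG (which every CANNTG count includes). The others were CCGGAA, an ETS site with its GGAA core, and GGAA alone. The E-box was in 4 of 11 windows, those of Spib, the first Elf4 start and the second starts of Elf1 and Elf2, against 66.2% of all 32851 windows of the table. CAGCTG was in 2 of 11, against 13.0%, and CCGGAA in 1 of 11, that of Gabpa, against 12.03%. The bare GGAA core was in 10 of 11 windows and in 93.4% of all. The 2 windows below belong to the gene with the highest ratio and to a gene with close values whose window holds CAGCTG. Each is 5′ to 3′ on the gene's strand and ends just before the annotated gene, and capitals mark CANNTG.
Ets2 (chr16:95702157-95702406, plus strand): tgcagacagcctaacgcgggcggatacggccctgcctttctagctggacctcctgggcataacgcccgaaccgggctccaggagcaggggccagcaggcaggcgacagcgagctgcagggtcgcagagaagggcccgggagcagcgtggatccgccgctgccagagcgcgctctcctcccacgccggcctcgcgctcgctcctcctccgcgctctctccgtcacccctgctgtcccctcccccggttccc
Elf4 (chrX:48463133-48463382, minus strand): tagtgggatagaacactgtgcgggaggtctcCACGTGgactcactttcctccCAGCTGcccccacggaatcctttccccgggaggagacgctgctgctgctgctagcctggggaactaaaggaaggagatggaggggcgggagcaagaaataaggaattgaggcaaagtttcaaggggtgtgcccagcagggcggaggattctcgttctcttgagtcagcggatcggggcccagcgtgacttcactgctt
The Ets2 window holds neither an E-box nor CCGGAA. The Elf4 window holds 2 E-boxes, which begin 219 and 198 bases before the start, and the nearer of them is CAGCTG. A match is a description of these letters and not a binding site.

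Partners of ETS factors were mostly close between the libraries, and Runx1 was the only one past 2-fold. Of 17 partners looked for, 16 were listed, none was at least 2-fold higher and 1 was at least 2-fold lower, and their median log2 ratio was −0.03. Over all 12283 genes, 1.53% were at least 2-fold higher and 0.716% lower, a background for the lists below as well. Runx1, which binds DNA together with Ets1, was 20.9 under the empty vector and 8.75 under Ascl2 (−1.16), while with a pseudocount of 5 no partner was past 2-fold. Its relative Runx3 was 54.1 and 43.7, and Cbfb, the shared subunit of the RUNX factors, was 54.2 and 52.8. The GABP subunit genes Gabpb1 and Gabpb2 were 37.1 and 35.7, and 21.8 and 28.2, so that Gabpa was 1.03 times Gabpb1 under the empty vector and 0.968 times under Ascl2. Serum response factor, Srf, was 19.7 and 13.02, 1.51-fold lower with Ascl2 (log2 ratio −0.56). The 5th percentile over all 12283 genes was −0.55. The coactivators of Srf, Mkl1 and Mkl2, were 23.4 and 17.04, and 3.66 and 3.56. Pax5, which recruits Ets1 to DNA, was 98.4 and 97.7. Irf4 and Irf8, which bind with Spi-B and PU.1, were 88.3 and 108.2, and 199 and 172. Among coactivators, Crebbp was 5.43 and 6.22 and Ep300 22.8 and 23.1. Among corepressors, Ncor1 was 126 and 134, Sin3a 27.3 and 33.3 and Hdac3 34.3 and 29.2.

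Of 25 genes of the RAS and ERK pathway, which phosphorylates Ets1, Ets2 and the ternary complex factors, 24 were listed and 23 reached a value of 1. Grb2, the adaptor that links receptors to the RAS exchange factor SOS, was at least 2-fold higher. Its values were 53.04 under the empty vector and 185 under Ascl2 (log2 ratio 1.79). None was at least 2-fold lower, 11 ratios were above 0 and 12 below. Hras had the largest difference in the other direction, at 16.9 and 8.53 (−0.91). The ERK phosphatase gene Dusp5 was 12.4 and 8.46, and the feedback inhibitor gene Spry2 was 3.32 and 2.18.

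Targets of 3 ETS branches were compared in lists taken from general knowledge, with earlier results of these data already known. Among 11 listed genes induced through serum response factor and ternary complex factors, 10 had a log2 ratio below 0. None was past 2-fold, and the median was −0.59. Over all 12283 genes, 6338 ratios were below 0, and the median was −0.01. Srf itself is 1 of the 11 and is also among the partners above. Junb, a subunit of AP-1, was 250 under the empty vector and 129 under Ascl2, Ier2 was 103 and 57.04, Fosb 20.6 and 11.3, and Egr3 11.3 and 6.12. Among 15 mitochondrial genes known as GABP targets, 11 had a ratio below 0, none was past 2-fold, and the median was −0.29. Cox6a1, a subunit of cytochrome c oxidase, was 507 and 281, the ATP synthase gene Atp5b was 1348 and 945, Cox4i1 was 562 and 403, and the mitochondrial RNA polymerase gene Polrmt was 11.2 and 7.90. With the span trend removed that median was −0.13, so it moved by more than 0.1 on the log2 scale.

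Among 15 B cell genes bound by Spi-B or PU.1, none was past 2-fold, 7 ratios were above 0 and 8 below, and the median was −0.002. The kinase gene Syk was 26.7 and 35.7, the inhibitory Fc receptor gene Fcgr2b was 34.6 and 45.4, the receptor chain gene Cd79a was 665 and 492, and the coreceptor gene Cd22 was 439 and 353. Btk, a kinase gene that depends on these factors, was 32.1 and 32.7. The last list holds 10 genes of B cell state set beside Ets1, not all of which are its targets. Of these 10, 2 were past 2-fold upward and none downward, beside 1.53% and 0.716% of all 12283 genes. The median of the 10 was 0.03. The list was written with earlier results of these data known, so nothing is read from that count. The 2 past the limit were Cr2 and Prdm1. Cr2, a complement receptor gene, was 7.35 and 30.5 (log2 ratio 1.91). Prdm1, the plasma cell regulator gene that Ets1 opposes, was 3.10 and 9.23 (1.32). With a pseudocount of 5, 1 of the 10 was past 2-fold. Bach2, another brake on plasma cell differentiation, was 7.06 and 13.0, and Klf2 was 33.9 and 18.6. Beside these lists, the 7 listed myeloid markers had a median log2 ratio of 0.21 and the 10 B cell markers one of 0.02. Of the myeloid ratios 6 were above 0 and 1 was below, that of Cebpb (11.7 and 7.27, −0.62). The myeloid median is the ratio of Csf1r, whose values were near the limit for keeping a gene (0.78 and 1.06). Whether the share of myeloid cells differed was not tested.

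**Figure D4:**
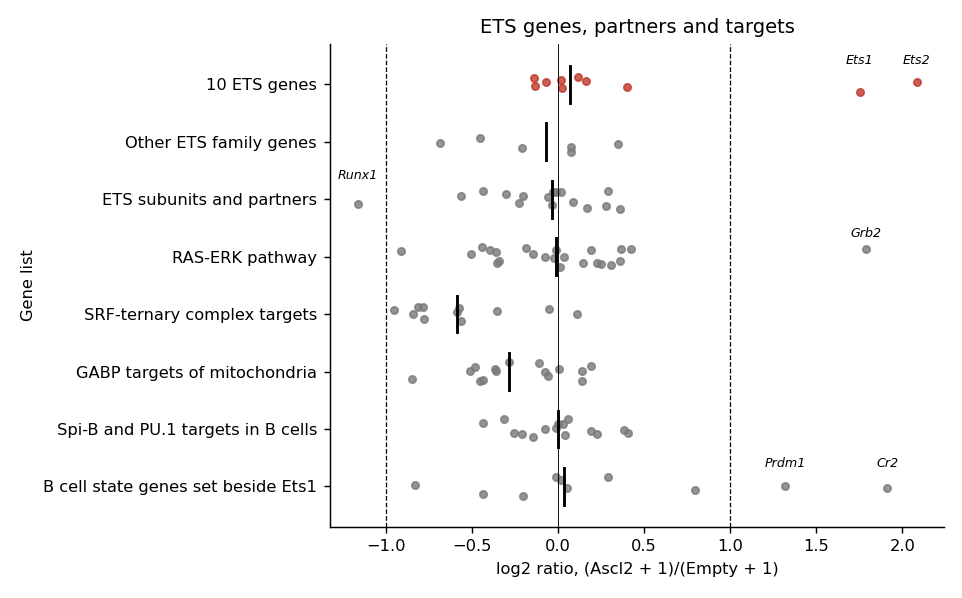
Log2 ratio of (Ascl2 + 1) to (Empty + 1) for genes that reached 1 in one library or both, in the 10 ETS genes (red) and 7 lists of family members, partners, pathway genes and targets (grey), with the median of each list as a black bar and dashed lines at 2-fold. Vertical scatter within a list carries no value. Ets1, Ets2, Grb2, Cr2 and Prdm1 lie beyond the upper line and Runx1 beyond the lower one.

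The genes most like Ets1 were taken as the 5 whose log2(value + 1) lay nearest to its own in the 2 libraries, by Euclidean distance. They were Slirp, which encodes a mitochondrial RNA-binding protein (11.7 and 31.8, distance 0.266), Mef2b, a germinal centre transcription factor gene (10.2 and 47.3, distance 0.377), and 3 immunoglobulin variable segments, with 10.6 to 12.4 in the empty-vector library and 27.4 to 47.3 in the Ascl2 library. Reads of such segments can be split among near-identical copies, and likeness over 2 libraries describes only a shared level and ratio.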

How the data were processed

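Each deposited file holds 1 signal value for every gene, an abundance with no unit named per the file headers; the sums are close between libraries, as after scaling for depth by the authors. The submitters' processing notes list Trim Galore, Bowtie2, Picard, MACS2 and the build mm10, with no roles; quantifier, annotation and strandedness: not given in the sources used here. Total RNA was extracted with Trizol, per the labels' protocols. The 2 chromatin samples were not analysed here.

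Groups came from sample titles. Genes that reached 1 in one library or both were kept (12283 of 13792), and the log2 ratio used a pseudocount of 1. No p-value was computed, since each group is 1 library. Members and lists were chosen with earlier results of these data known. All ETS genes and partners may be named; of other lists, up to 4 genes with the largest ratios and any past 2-fold. Btk was chosen after its values were seen. Some genes were left out of the lists and are not reported here. Coordinates and spans are RefSeq's on GRCm38.p6, matched by symbol. The span trend was a running median over 501 of the 11327 kept genes with a span. Alternatives were 2 pseudocounts, 2 filters, 3 rescalings, 2 fold limits, span removal and leaving out Ets2. Steps ran in Python 3.11.15 and pandas 2.3.3. The log2 ratio, the filter and the 2-fold limit were tested on simulated data with planted changes, and the other steps were not.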

Additional observations from a re-analysis of the deposited data

How the results depend on the processing

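Under 11 alternatives, 210 of 226 values stayed near the reported one: single genes stayed on their side of the 2-fold limit, medians and the family sum moved by less than 0.1 on the log2 scale, and counts by at most 1.5 times. Part of that tally was fixed by how the alternatives were built, so it does not measure how firm the values are. The 3 rescalings shift a log2 ratio by at most 0.014, 0.024 and 0.092, each under the 0.1 allowed. Neither filter can drop any of the 10 ETS genes, whose lowest Ascl2 value was 11.4. With a pseudocount of 1, genes under 1 in both libraries cannot reach 2-fold. No gene past 2-fold changed sign, but 10 values near 0 did, all of them within 0.089 of 0 before and after. These were the ratios of Etv6 and Elk3 under 1 alternative each, and 8 values of 4 list medians (the ETS genes outside the 10, partners, RAS and ERK genes, and Spi-B and PU.1 targets), so the direction of none of these 6 is read. Ets1 and Ets2 stayed past 2-fold under both pseudocounts, all 3 rescalings and span removal, from 1.45 to 1.84 and from 1.35 to 2.40. Over the 12283 genes, 188 were at least 2-fold higher and 88 lower. These counts were 370 and 220 with a pseudocount of 0.1, 103 and 20 with 5, 615 and 530 at a 1.5-fold limit, and 41 and 15 at a 3-fold limit. With the span trend removed 118 were higher; genes with no span, many of them immunoglobulin segments, are left out there by construction. Without Ets2, 1 of the ETS genes was past 2-fold. With a pseudocount of 5, 0 partners and 1 of the genes set beside Ets1 were past 2-fold. The median of serum response factor targets was −0.72 with a pseudocount of 0.1, and that of GABP targets −0.13 with the span trend removed. The median of the ETS genes outside the 10 was −0.07, but 0.073 with no filter and −0.21 with a filter of 5, which change its few genes. Beyond these constructions the cause was not tested. No paired analysis was possible because each group has 1 library, and none can be left out. The files give no read depth from which a counting error could be had.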
